A study of Mus musculus with 4 samples.

Results

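The pancreatic chymotrypsins, elastases and carboxypeptidases are the protein-digesting enzymes that acinar cells make beside trypsin. The 8 genes examined were Ctrb1 and Ctrl (chymotrypsins), Cela1, Cela2a, Cela3a and Cela3b (elastases), and Cpa1 and Cpb1 (carboxypeptidases), chosen by name among the 32285 genes listed. Cpb1 was listed at 0 in every spot of all 4 sections and was dropped, which left 7 of 8 genes. Its 0 is not read as absence of its RNA, since the sources used here do not show whether a working Cpb1 probe was counted. The count file lists many genes without any count, and 20388 of the 32285 genes had at least 1 UMI in some section. Values were taken over spots with at least 500 UMIs, where a UMI, or unique molecular identifier, marks 1 captured probe molecule.

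The sections came from formalin-fixed, paraffin-embedded pancreas of 4 C57Bl/6 mice with acute pancreatitis, 1 section per mouse, profiled with the CytAssist Visium spatial assay. All mice carried the Pdx1-Cre transgene. In 2 mice both Ehmt2 alleles were wild type (labelled Ehmt2+/+ here), and in the other 2 they were floxed (Ehmt2 fl/fl), so that Cre removes this histone methyltransferase in cells descended from the pancreatic epithelium and leaves it in immune cells, vessels and fibroblasts. Every mouse was fasted for 12 h and then received caerulein, a cholecystokinin analogue that overstimulates acinar cells, at 50 μg/kg in 8 hourly injections, with collection 18 h after the first dose. The study's methods give an age of 4 weeks. No section without caerulein was analysed here, so each value describes the inflamed gland.

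Chymotrypsins, elastases and carboxypeptidases are made as inactive zymogens, packed into zymogen granules at the apical side of the acinar cell and released into the duct on a meal. In the gut lumen trypsin cuts off a propeptide and makes them active. Chymotrypsins cut after large aromatic residues, some of the elastases after small ones, and carboxypeptidases remove single residues from the C-terminal end. Acinar cells devote much of their mRNA to such enzymes under the control of the PTF1 complex, which binds E-box and TTTCCC motifs, and caerulein pancreatitis is known for a loss of enzyme content from these cells.

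All 8 genes matched a promoter entry of RefSeq on GRCm38.p6, the build that mm10 stands for. The 250 bases before the start site are shown for 4 of them, because Ctrb1 and Cela2a are the members whose share of the family differed most between genotypes, and because Cela3a and Cela3b are neighbours with near-identical sequence and very unequal counts. Each is read 5′ to 3′ on the gene's minus strand, and capitals mark CACCTG or its reverse complement CAGGTG, a form of the E-box. Other E-box sequences, such as CAGCTG in the Ctrb1 window, were not marked or counted.
Ctrb1: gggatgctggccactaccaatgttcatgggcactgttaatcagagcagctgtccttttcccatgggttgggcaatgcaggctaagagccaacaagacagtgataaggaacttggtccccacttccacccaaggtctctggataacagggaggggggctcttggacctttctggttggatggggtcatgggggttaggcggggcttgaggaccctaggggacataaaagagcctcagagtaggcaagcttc
Cela2a: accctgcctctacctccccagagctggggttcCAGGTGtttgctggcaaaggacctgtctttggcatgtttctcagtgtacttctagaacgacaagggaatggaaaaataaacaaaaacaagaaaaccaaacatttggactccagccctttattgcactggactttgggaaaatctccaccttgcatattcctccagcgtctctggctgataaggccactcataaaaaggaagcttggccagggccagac
Cela3a: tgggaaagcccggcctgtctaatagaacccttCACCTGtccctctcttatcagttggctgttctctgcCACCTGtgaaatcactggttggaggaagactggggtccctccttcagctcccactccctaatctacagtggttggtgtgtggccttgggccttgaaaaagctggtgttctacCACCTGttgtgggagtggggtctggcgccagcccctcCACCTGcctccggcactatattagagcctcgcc
Cela3b: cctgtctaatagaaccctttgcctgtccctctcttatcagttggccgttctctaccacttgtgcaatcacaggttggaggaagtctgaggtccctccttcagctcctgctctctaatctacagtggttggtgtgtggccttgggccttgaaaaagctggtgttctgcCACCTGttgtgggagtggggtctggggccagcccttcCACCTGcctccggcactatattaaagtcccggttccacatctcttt
The windows lie at chr8:111691011-111691260 for Ctrb1, chr4:141826006-141826255 for Cela2a, chr4:137409792-137410041 for Cela3a and chr4:137430521-137430770 for Cela3b. Start sites are those of RefSeq, while the gene spans given below are from GENCODE. The windows of Cela2a and Cela3b therefore lie partly inside those spans. On either strand, CACCTG stood in the windows of 6 of the 8 members and was lacking in those of Ctrb1 and Cpa1. Over all 32851 RefSeq promoter windows of the same length, 17.2% held it at least once. Cela3a held 4 copies, which 0.0426% of all windows matched or exceeded, and Cela3b and Ctrl held 2 copies, where 2.06% of all windows held 2 or more. TTTCCC, searched on both strands, stood in 5 of 8 windows against 21.9% of all, and GATAAG in 5 of 8 against 6.55%. TATAAA and AAGGTCA were searched as well, and each stood in 1 of 8, that of Cela1, against 12.4% and 4.08% of all. The near-identical windows of Cela3a and Cela3b were counted as separate members for each motif. Matches of different motifs were counted separately even where their ends overlap, and a match is a description of the window, not a bound site.

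The 4 sections differed widely in depth. Ehmt2+/+ replicates 1 and 2 and Ehmt2 fl/fl replicates 1 and 2 had 6144, 7871, 6483 and 6462 spots with at least 500 UMIs, with median depths of 6328, 874, 981 and 1113 UMIs, so that 1 section of Ehmt2+/+ stood apart from the other 3. Of the 14336 spot barcodes in any section, 13898 occurred in all 4, since the slides share their barcode positions. Each of the 2 slides held 1 section of each genotype, but both Ehmt2+/+ sections lay in one capture area and both Ehmt2 fl/fl sections in the other, so area and genotype cannot be told apart. The same holds for sex. Y-linked genes Ddx3y, Uty, Kdm5d and Eif2s3y reached at most 0.0228 UMIs per 1000000 UMIs (CPM) in Ehmt2+/+ and lay between 4.97 and 17.5 CPM in Ehmt2 fl/fl. Ehmt2 itself stood at 19.8, 3.95, 10.1 and 12.1 CPM, near the median of olfactory receptor genes in 3 of the 4 sections (0.251, 4.97, 8.28 and 12.6 CPM), so it does not check the labels. Genotypes are therefore given as labelled, and values run in the order Ehmt2+/+ replicates 1 and 2, then Ehmt2 fl/fl replicates 1 and 2, unless stated.

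Together the members took a far larger part of all UMIs in Ehmt2+/+ than in Ehmt2 fl/fl. Their summed share was 53.1% and 45.4% in the former and 18.2% and 17.5% in the latter. This gave means of 49.2% ± 5.39 and 17.9% ± 0.517 (SD, n = 2 each), a difference of −31.4 percentage points that exceeds the spread within either genotype. The two-sided exact permutation test gave p = 0.333, the smallest that 2 sections against 2 can reach. Within the first slide the difference was −34.8 points and within the second −27.9 points. It was −15.5 points in spots with at least 1000 UMIs of other pancreatic enzymes per 10000, of which Ehmt2 fl/fl had 8 and 34. In tissue sections a lower share can come from fewer acinar cells or from less enzyme RNA per cell, which cannot be told apart here. Some markers of other cells lay higher in both Ehmt2 fl/fl sections, as did 91.8% of all genes tested in CPM. The summed share of 7 fibroblast genes was 0.043%, 0.0596%, 0.214% and 0.202% of UMIs in the same order. That of 7 macrophage genes was 0.00628%, 0.0107%, 0.065% and 0.0479%, and that of 8 lymphoid genes 0.000927%, 0.00794%, 0.021% and 0.021%. No gene of these lists was at 0. The summed share of the 9 duct genes changed little, at 0.332%, 0.319%, 0.353% and 0.355%, but the genes in it did not move alike. Epcam stood at 455 and 759 CPM in Ehmt2+/+ against 1448 and 1211 in Ehmt2 fl/fl. Krt18 went the other way, at 1585 and 1049 against 890 and 787 CPM. The 7 islet genes did not separate the genotypes, at 0.114%, 0.0757%, 0.672% and 0.0915%. The part of these cells in the result was not tested. The 9 acinar genes outside the family moved in the same direction as the members, at 6.68%, 5.43%, 1.86% and 1.74% of UMIs, which marks the tissue of all 4 sections as pancreas.

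The chymotrypsins held the most UMIs. Ctrb1, the main pancreatic chymotrypsin of the mouse (chromosome 8, 111686519 to 111691010, minus strand of GRCm38), had the highest count of any gene in every section. Its level was 354306 and 297980 CPM in Ehmt2+/+ and 145455 and 140904 CPM in Ehmt2 fl/fl. That is a 2.28-fold difference between the means, with no overlap. Ctrl, the chymotrypsin-like protease (chromosome 8, 105932003 to 105933862, minus strand), stood at 28935 and 26515 CPM against 7392 and 7665 CPM. Its means differed 3.68-fold, and both slides showed the difference, at 3.91-fold and 3.46-fold.

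The elastases differed unequally, and Cela2a had the largest fold of the 7 members in CPM. Cela2a, a pancreatic elastase (chromosome 4, 141814962 to 141826160, minus strand), had 68993 and 63109 CPM in Ehmt2+/+ and 7839 and 6893 CPM in Ehmt2 fl/fl, an 8.97-fold difference of the means. Both slides gave a like value, at 8.80-fold and 9.16-fold. It was the second gene of the family in both Ehmt2+/+ sections, and ranked 3 and 4 in the Ehmt2 fl/fl sections. Cela3b, on the same chromosome (137420999 to 137430540, minus strand) and an enzyme of the same class, stood at 42744 and 36655 CPM against 11240 and 10382 CPM, 3.67-fold apart. Cela1 (chromosome 15, 100674421 to 100687921, minus strand), the elastase with the fewest UMIs among the well-detected members, had 11914 and 12698 CPM against 4484 and 3588 CPM, 3.05-fold apart.

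In CPM, Cela3a (chromosome 4, 137401554 to 137409791, minus strand) did not follow the rest of the family, though it did after the TMM scaling given below. The median of olfactory receptor genes was 0.251, 4.97, 8.28 and 12.6 CPM, so the background itself lay higher in Ehmt2 fl/fl. The counts of Cela3a were low in every section. Cela3a had 324 and 70 UMIs in Ehmt2+/+ and 68 and 85 in Ehmt2 fl/fl, or 7.40, 8.92, 10.2 and 10.7 CPM. Of 1107 olfactory receptor genes with a UMI, which acinar tissue is not known to use, 0%, 4.34%, 34.2% and 66.4% had at least its count in the same sections, so its counts lay within the background in both Ehmt2 fl/fl sections. The transcripts of Cela3a and Cela3b are 94.9% identical over 916 aligned bases, and their upstream windows 92.4% over 237 bases. Of the 909 windows of 50 bases in the Cela3a transcript, 311 also occur in Cela3b, so a probe placed there could not tell them apart, and the probe positions are not given in the sources used here. Cela2a likewise lies within the annotated span of Ctrc on the same strand and shares 261 of its 1021 windows with Ctrc transcripts. The other 5 members shared no such window with another gene.

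Among the carboxypeptidases, Cpa1, which removes aromatic and branched residues (chromosome 6, 30639218 to 30645363, plus strand), had 23633 and 17402 CPM in Ehmt2+/+ and 6057 and 5729 CPM in Ehmt2 fl/fl, 3.48-fold apart. Cpb1 (chromosome 3, 20248264 to 20275733, minus strand), which removes basic residues, has no value. In CPM, 6 of the 7 members lay lower in both Ehmt2 fl/fl sections than in both Ehmt2+/+ sections, as did 0.778% of the 20053 genes tested. The 1 member that lay higher, Cela3a, shared that order with 91.8% of all genes tested. After TMM scaling, all 7 members lay lower in both Ehmt2 fl/fl sections, as did 17.2% of all genes tested, with Cela3a at 25.7 and 9.33 against 6.00 and 5.03. Levels of different genes were not ranked as amounts of RNA, since each rests on its own probes.

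**Figure D1:**
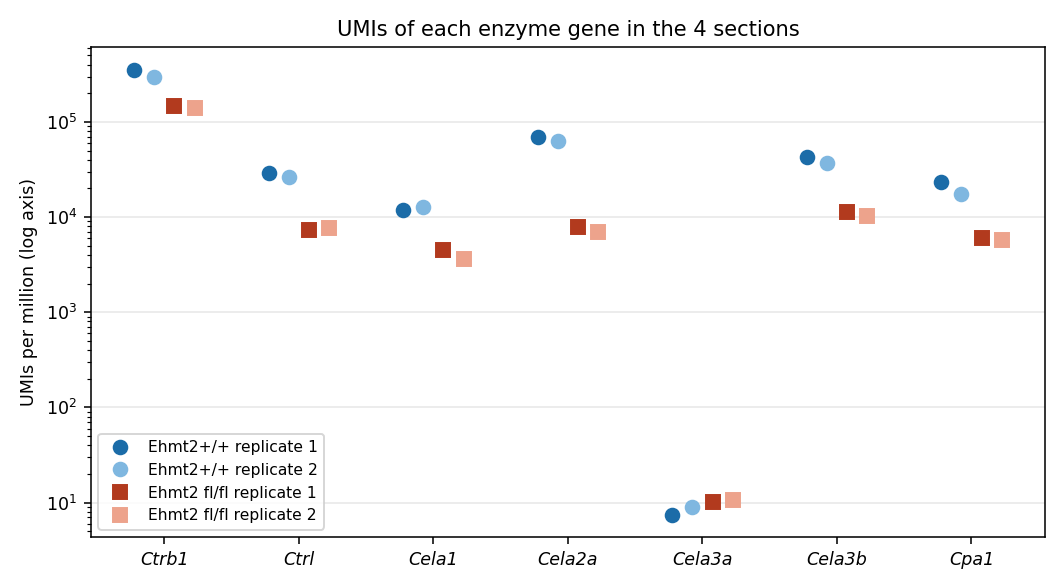
UMIs per 1000000 UMIs (CPM) over spots with at least 500 UMIs (log axis) of the 7 detected members, with 1 point per section, circles for Ehmt2+/+ and squares for Ehmt2 fl/fl. Both squares lie below both circles for 6 members, with the widest gap for Cela2a, and Cela3a lies near 10 CPM in every section.

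Of the 7 members, 0 were called by edgeR's quasi-likelihood test across all genes, which called 11 genes lower (0.0549% of those tested) and 11 higher (0.0549%). The unadjusted p was under 0.05 for 1 member, Cela3a, and for 5.28% of all genes tested. On the log2 scale, Ehmt2 fl/fl minus Ehmt2+/+ was −5.29 for Cela2a (SE 2.88, adjusted p = 0.863 by that test), −3.35 for Ctrb1 (SE 3.41, adjusted p = 0.863) and −4.01 for Ctrl (SE 2.38, adjusted p = 0.863). Cela1 stood at −3.66, Cela3b at −4.03, Cpa1 at −4.01 and Cela3a at −1.67, with adjusted p between 0.785 and 0.863 in edgeR. The TMM factors of this fit ran from 0.288 to 2.13, and the scaling sets the size of each value. With library sizes alone, Cela2a stood at −3.16, Ctrb1 at −1.19 and Cela3a at 0.36. That scaling moved the median of all genes from 0.25 to 1.69. Relative to that median, Cela2a stood at −5.53 with TMM and −4.86 with library sizes, Ctrb1 at −3.59 and −2.88, and Cela3a at −1.92 and −1.33. Leaving out 1 section at a time moved Cela2a between −6.08 and −4.05, Ctrb1 between −4.17 and −2.01 and Cela3a between −2.37 and −0.73, in each case with the lowest value without Ehmt2+/+ replicate 2 and the highest without Ehmt2+/+ replicate 1. DESeq2 called 6 members lower, all but Cela3a, for which it gave no adjusted p, and 1.37% of all genes lower. Without Ehmt2+/+ replicate 2, edgeR called 6 members lower, all but Ctrb1, and 36.3% of all genes lower, with 16653 of 20117 genes called in all.

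The makeup of the family differed between genotypes. Of the UMIs of all members, Cela2a held 13.0% and 13.9% in Ehmt2+/+ and 4.30% and 3.93% in Ehmt2 fl/fl. The means were 13.4% ± 0.626 and 4.12% ± 0.255 (SD, n = 2 each), a 3.27-fold difference and many times the spread within a genotype. Ctrb1 moved the other way, from 66.8% and 65.6% to 79.7% and 80.4%, a difference of 13.9 percentage points. Cela3b held 8.06% and 8.07% against 6.16% and 5.93%, and Ctrl 5.45% and 5.84% against 4.05% and 4.38%. Cpa1 held 4.45% and 3.83% against 3.32% and 3.27%. The sections overlapped for Cela1 alone, at 2.25% and 2.79% against 2.46% and 2.05%. No share over all genes is given for this measure of makeup, so whether separation of the other members is unusual cannot be read from it. The exact permutation test gave p = 0.333 for each member whose sections did not overlap, the smallest it can give, and 0.667 for Cela1. Because the shares add to a whole, a lower share of Cela2a by itself raises the shares of the others. Pairs of members are free of that tie. For every 100 UMIs of Cela3b there were 161 and 172 UMIs of Cela2a in Ehmt2+/+ and 69.7 and 66.4 in Ehmt2 fl/fl. For every 100 UMIs of Ctrl there were 238 and 238 of Cela2a against 106 and 89.9. Ctrb1 had 1224 and 1124 UMIs per 100 of Ctrl in Ehmt2+/+ against 1968 and 1838 in Ehmt2 fl/fl. Per 100 of Cela3b it had 829 and 813 against 1294 and 1357. Ctrl and Cela3b kept a like ratio in all 4 sections, with 67.7, 72.3, 65.8 and 73.8 UMIs of Ctrl per 100 of Cela3b. These pairs were chosen after their values were seen.

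**Figure D2:**
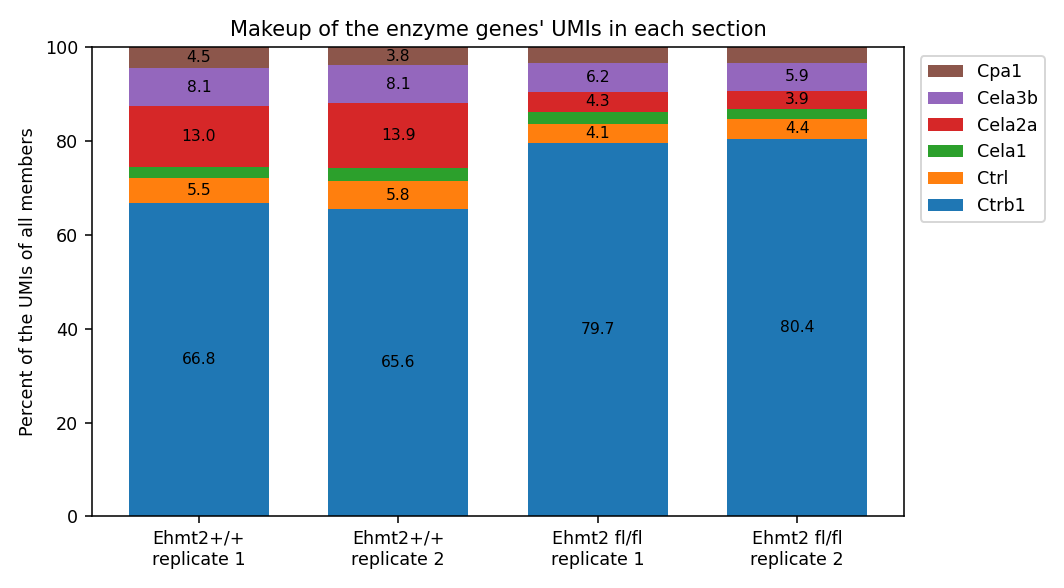
Percent of the UMIs of all members held by each member in the 4 sections, as stacked bars that add to 100, with Cela3a left out because its share is below 0.01%. Cela2a fills 13.0% and 13.9% of the bars of Ehmt2+/+ and 4.30% and 3.93% of those of Ehmt2 fl/fl, where Ctrb1 fills 79.7% and 80.4%.

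Set against the other pancreatic enzymes in place of all UMIs, the summed family, most of it Ctrb1, differed little. Cela2a still differed, and Ctrl, Cela3b and Cpa1 did so to a lesser degree. The other pancreatic enzymes, 23 tested genes for trypsinogens, lipases, amylases and others, held 11.7%, 8.84%, 4.18% and 4.16% of UMIs. The list also counts the granule proteins Sycn and Zg16. Its genes did not move alike. Of its 8 trypsinogens, 4 lay lower and 4 higher in both Ehmt2 fl/fl sections in CPM, as did 0.778% and 91.8% of all genes tested. The 4 higher ones include Prss3, at 1011 and 1440 against 5012 and 4321 CPM. They also include genes near background, between 1.53 and 20.4 CPM over the 4 sections. Per UMI of the other pancreatic enzymes, the members together had 4.55, 5.14, 4.37 and 4.21 UMIs. Per 100 UMIs of the other enzymes, Ctrb1 had 304 and 337 UMIs in Ehmt2+/+ and 348 and 339 in Ehmt2 fl/fl. Cela2a had 59.2 and 71.4 against 18.8 and 16.6. On this scale 4 of 7 members lay lower in both Ehmt2 fl/fl sections (Ctrl, Cela2a, Cela3b and Cpa1), as did 0.15% of all genes tested, and 2 lay higher (Ctrb1 and Cela3a), as did 99.3%. With these enzymes as library size, the log2 fold change was −1.89 for Cela2a (SE 2.04, adjusted p = 0.385 by edgeR's quasi-likelihood test), 0.10 for Ctrb1 and between −0.60 and −0.34 for Ctrl, Cela1, Cela3b and Cpa1. On that scale 0 members were called and 0 had an unadjusted p under 0.05, while 0.00997% of all genes were called lower and 24.6% higher. With lipases or trypsinogens as library size Cela2a stayed negative, at −1.16 and −2.11, while Ctrb1 turned negative with trypsinogens, at −0.12, and Ctrl, Cela1, Cela3b and Cpa1 turned positive with lipases, between 0.12 and 0.37.

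The makeup was also compared within bins of spots. Spots were binned by UMIs of the other pancreatic enzymes per 10000 UMIs. From 300 to 1000, a bin with 1653 and 5280 spots in Ehmt2+/+ and 4286 and 3754 in Ehmt2 fl/fl, Cela2a held 10.9% and 12.9% of member UMIs against 4.38% and 4.06%. Ctrb1 held 71.6% and 67.7% against 79.7% and 80.2% there. The content within this bin was not alike, with 892 and 787 UMIs of the other enzymes per 10000 in Ehmt2+/+ against 522 and 545, and the members held 52.1% and 44.3% of all UMIs against 22.6% and 22.7%. Below 100, where Ehmt2+/+ replicate 1 has no spot, Cela2a held 10.8% in 72 spots of Ehmt2+/+ replicate 2 and 3.63% and 3.12% in 412 and 735 spots of the Ehmt2 fl/fl sections. Spots of 1000 to 3000 were common in Ehmt2+/+, with 4488 and 2412 spots, and rare in Ehmt2 fl/fl, with 8 and 34. Their content lay closer, at 1217 and 1120 against 1089 and 1073 per 10000, and Cela2a held 13.4% and 15.6% of member UMIs in them against 4.71% and 4.59%.

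**Figure D3:**
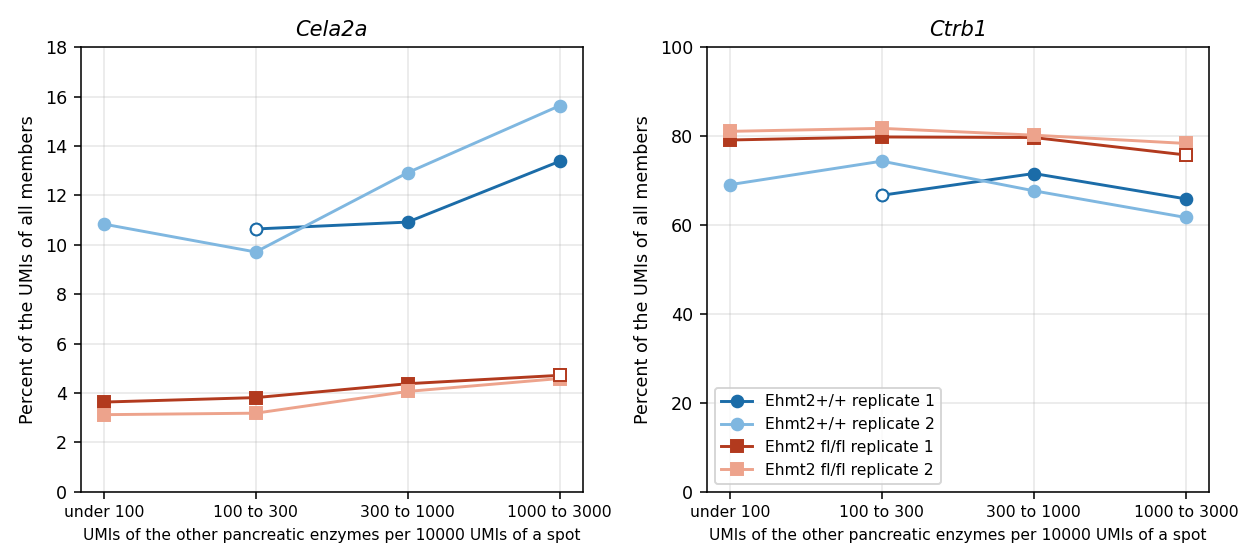
Percent of the UMIs of all members held by Cela2a (left) and Ctrb1 (right) in spots binned by UMIs of the other pancreatic enzymes per 10000 UMIs, with 1 line per section and open symbols for bins of fewer than 20 spots. Cela2a lies between 9.71% and 15.6% in the Ehmt2+/+ sections and between 3.12% and 4.71% in the Ehmt2 fl/fl sections, and Ctrb1 is lower in Ehmt2+/+ in each bin.

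The makeup was also read in spots chosen for other features. In spots rich in insulin mRNA (at least 500 UMIs of Ins1 and Ins2 per 10000), the members still held 24.4% and 17.7% of UMIs in Ehmt2+/+ (29 and 13 spots) and 9.19% and 6.52% in Ehmt2 fl/fl (137 and 25 spots). Cela2a made up 13.2% and 14.9% of member UMIs there against 4.67% and 3.67%. In spots with under 100 UMIs, the members held 47.1%, 35.3%, 13.1% and 11.3% of UMIs, and Cela2a 12.6%, 11.6%, 5.37% and 5.65% of member UMIs. Member UMIs were thus counted in nearly empty spots of every section, and a UMI in a spot does not by itself place an acinar cell there.

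Across spots with at least 500 UMIs, the members were spread more evenly in Ehmt2+/+ than in Ehmt2 fl/fl. The share of a spot's UMIs held by the members had a median of 52.8% in Ehmt2+/+ replicate 1 and ran from 44.0% at the 5th to 57.7% at the 95th percentile. In replicate 2 the median was 46.2%, from 25.3% to 54.2%. In Ehmt2 fl/fl replicates 1 and 2 the medians were 16.8% and 14.9%, from 3.33% to 32.8% and from 1.36% to 32.2%. Of the spots, 99.3% and 91.8% in Ehmt2+/+ had over 30% of their UMIs from the members, against 8.85% and 7.37% in Ehmt2 fl/fl. Conversely, 0% and 0.877% of spots had under 5% against 8.02% and 13.8%. The deepest section is also the most even, and sampling error is larger in the shallow spots of the other 3. The floor of 500 UMIs also counts the UMIs of the members. Without members and other pancreatic enzymes, 5514, 2196, 6000 and 5932 spots reached 500 UMIs, against 6144, 7871, 6483 and 6462 with them. Enzyme-poor spots may thus have been left out, most of all in Ehmt2+/+ replicate 2, and the effect was not tested.

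**Figure D4:**
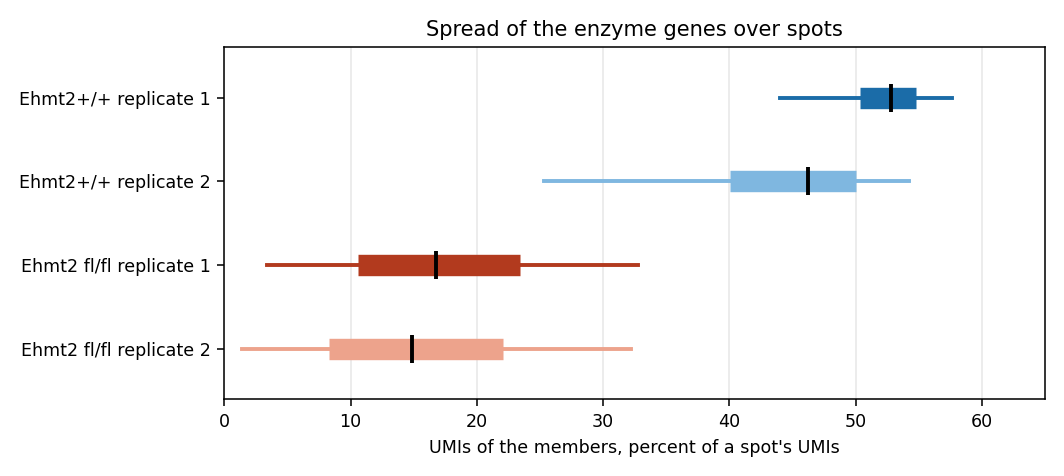
Share of a spot's UMIs held by all members, in percent, in the 4 sections, with thin lines from the 5th to the 95th percentile of spots, thick bars from the 25th to the 75th and black ticks at the median. The medians are 52.8% and 46.2% in the Ehmt2+/+ sections and 16.8% and 14.9% in the Ehmt2 fl/fl sections.

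To compare the share of spots with a UMI at 1 depth, every spot was thinned at random to 500 UMIs. Ctrb1 was then found in 100%, 99.9%, 99.8% and 98.7% of spots and is too abundant for this measure. Cela2a was found in 100% and 99.6% of spots in Ehmt2+/+ and in 86.1% (95% Clopper-Pearson interval 85.2 to 86.9) and 79.2% (78.2 to 80.2) in Ehmt2 fl/fl. Unthinned, the Ehmt2 fl/fl values were 92.5% and 87.8%. Cela1 was found in 99.5% and 97.9% against 80.3% and 70.1%. Ctrl stood at 100% and 99.3% against 90.2% and 85.9%, Cela3b at 100% and 99.5% against 93.8% and 89.2%, and Cpa1 at 99.9% and 99.1% against 87.6% and 82.3%. Each of these 5 members had non-overlapping sections (exact permutation p = 0.333). No share over all genes is given for this measure, so whether such separation is unusual cannot be read from it. Cela3a was found in 0.358%, 0.495%, 0.524% and 0.511% of thinned spots, with intervals that overlap between all sections. The intervals cover counting error only. For comparison, Cela2a was found in 61.0%, 64.0%, 11.6% and 11.3% of spots with under 100 UMIs. These spots were not thinned and had unlike depths, with medians of 25, 28, 11 and 11 UMIs.

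The members varied together from spot to spot in Ehmt2 fl/fl. Over spots thinned to 500 UMIs, Spearman correlations between pairs of the 6 well-detected members lay between 0.36 and 0.71 in Ehmt2 fl/fl replicate 1 and between 0.42 and 0.75 in replicate 2, with Ctrb1 and Cela3b the closest pair in both. In Ehmt2+/+ replicate 2 they lay between 0.15 and 0.50. In Ehmt2+/+ replicate 1 they lay between −0.22 and 0.25, and Ctrb1 was negatively correlated with each of the other 5. All spots hold the same number of UMIs, so a gene that takes 35.4% of them in a section lowers the counts of the rest, and these correlations are given as descriptions. Genes outside the family were ranked by their lowest correlation with its summed UMIs over the 4 sections, among 368 genes found in at least 5% of thinned spots in every section, and Zg16, Cel, Reg1 and Sycn were among the highest. Zg16 and Sycn are proteins of the zymogen granule, Cel is carboxyl ester lipase and Reg1 is a secreted protein of acinar cells. Zg16 had 0.07, 0.34, 0.48 and 0.51, and Reg1 had 0.04, 0.50, 0.71 and 0.71. In Ehmt2+/+ replicate 1 each of these 4 lay at or below 0.07.

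**Figure D5:**
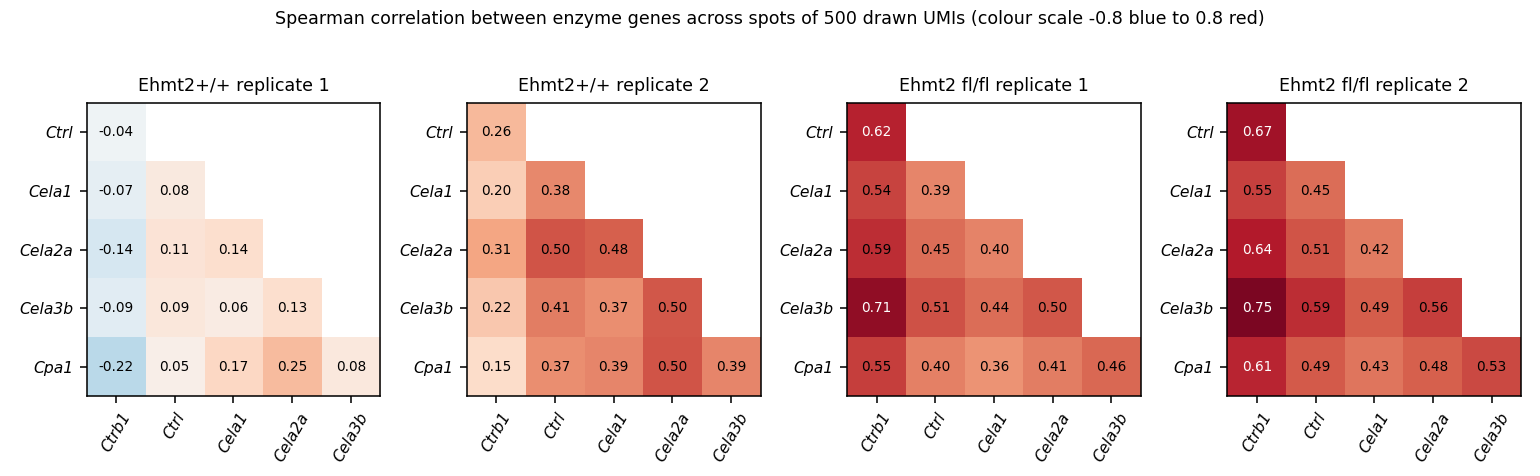
Spearman correlation between pairs of the 6 well-detected members across spots thinned to 500 UMIs, with 1 panel per section and the value in each cell. Every pair lies between 0.36 and 0.75 in the Ehmt2 fl/fl sections, while the Ctrb1 column is negative in Ehmt2+/+ replicate 1, from −0.22 to −0.04.

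Genes of the same pathway were counted from lists. Of the 23 other pancreatic enzymes tested, 0 were called by edgeR in either direction, 12 had an unadjusted p under 0.05, as did 5.28% of all genes tested, and 16 lay lower and 5 higher in both Ehmt2 fl/fl sections in CPM, as did 0.778% and 91.8% of all genes. Their median log2 fold change was −3.93, against −4.01 for the 7 members and 0.25 for all genes tested. DESeq2 was run for the members and the count over all genes, not for these lists. The trypsinogen 2210010C04Rik stood at 28472, 19449, 6506 and 6747 CPM, and Cel at 17901, 13946, 4342 and 4218. Sycn, syncollin, stood at 11588, 14499, 5403 and 5310 CPM. Ctrc, the gene of chymotrypsin C, stood at 85.3 and 72.4 against 19.1 and 23.3 CPM, 3.72-fold apart. In Ehmt2 fl/fl it lay just above the 95th percentile of olfactory receptor genes, 16.7 and 21.3 CPM, so the size of its fold is uncertain. Its transcripts also share sequence windows with Cela2a. The log2 fold change of Ctrc was −4.07 (SE 1.11, adjusted p = 0.116, edgeR).

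Of 11 related peptidases tested, 0 were called by edgeR, 1 had an unadjusted p under 0.05, and 2 lay lower and 9 higher in both Ehmt2 fl/fl sections in CPM, where 0.778% and 91.8% of all genes tested did (median log2 fold change 0.73). Cpe, carboxypeptidase E of endocrine granules, stood at 17.2 and 17.6 against 41.8 and 37.3 CPM, but at −0.90 on the log2 scale in the TMM fit, the opposite direction. Cpa4 stood at 1.78, 11.2, 19.0 and 24.1 CPM, near background. Of 15 genes of zymogen activation and inhibition, 0 were called, 4 had an unadjusted p under 0.05, and 1 lay lower and 10 higher in CPM, again beside 0.778% and 91.8% of all genes (median log2 fold change 0.12). Ctsb, the lysosomal protease that can activate trypsinogen, stood at 391 and 269 against 1028 and 635 CPM, and Ctsd, cathepsin D, at 194 and 154 against 454 and 282 CPM, while the TMM fit put them lower, at −0.86 and −1.06. Ctsl, a lysosomal protease that degrades trypsinogen, stood at 4503 and 5402 against 2400 and 2233 CPM, and the trypsin inhibitor Spink1 at 2887 and 1215 against 1376 and 777 CPM.

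Granule genes and regulators completed the lists. Of 11 zymogen granule genes tested, 0 were called and 4 had an unadjusted p under 0.05 in edgeR, with 5 lower and 4 higher in CPM, beside the same 0.778% and 91.8% of all genes, and a median log2 fold change of −2.07. Zg16 stood at 10166 and 9427 against 2935 and 2634 CPM, Gp2 at 5865 and 2887 against 1520 and 1687, and Cuzd1 at 1747 and 1878 against 733 and 660. Of 8 acinar transcription factors, 1 was called lower and 7 had an unadjusted p under 0.05, with 3 lower and 1 higher in CPM (0.778% and 91.8% of all genes) and a median log2 fold change of −2.13. The gene called was Rbpjl, the acinar subunit of the PTF1 complex, at 95.1 and 53.2 against 15.7 and 12.7 CPM. In Ehmt2 fl/fl it lay below the 95th percentile of olfactory receptor genes, 16.7 and 21.3 CPM, so the size of its fold is uncertain. Its log2 fold change was −4.67 (SE 1.15, adjusted p = 0.0465, edgeR). With the other pancreatic enzymes as library size it stood at −1.06 and was not called (adjusted p = 0.197, edgeR). Xbp1, a regulator of the secretory pathway, stood at 401.9 and 234 against 154 and 140 CPM. Gata4 stood at 31.0, 27.1, 25 and 26.1 CPM.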

How the data were processed

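The authors hybridized Visium probes on FFPE sections with CytAssist and counted them with Space Ranger (version 2.0.1 in the count files) on mm10. The deposited values are raw UMI counts, not normalized, for every spot of the capture area, on or off tissue. Deprecated probe rows (304 of 32589 features; 0.477% to 0.803% of UMIs) were left out. The members and lists were chosen with earlier results of these data known. Tissue marks carry no barcodes, so spots with at least 500 UMIs were used, and these held 6643747 to 43784930 UMIs per section. Replicate numbers follow accession order and coincide with the slide.

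Counts were summed per section and tested with edgeR 4.0.16 in R 4.3.3 (quasi-likelihood test, TMM, filterByExpr at a minimum of 10 counts, 20053 genes, Benjamini-Hochberg adjustment, threshold 0.05), and again with the other pancreatic enzymes as library size. SE is the log2 fold change divided by the root of F. For shares, exact permutation tests (two-sided) ran over the 6 splits of 4 sections, and thinning used a fixed seed (numpy 2.4.6, scipy 1.17.1, Python 3.11.15). Alternatives were DESeq2 1.42.0, other scalings, filters, spot sets and references, and each section left out. Slide terms and the bin of 300 to 1000 were added after seeing the data. The edgeR fit was also run on counts simulated from a profile shared by all sections, with known folds in some genes. That run lacked the difference in enzyme share between genotypes, so it does not check the fit under such a difference. Named were the members, Ehmt2, sex-linked genes, the 4 genes of each list with the highest mean CPM, Ctrc and the 5 genes closest to the family across spots. Some genes that this rule names are not reported here. RefSeq promoters (GRCm38.p6) and GENCODE vM21 transcripts gave sequences and positions. The bulk RNA-seq was not analysed here.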

Additional observations from a re-analysis of the deposited data

How the results depend on the processing

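The differences in the summed share and in the shares of Cela2a and Ctrb1 within the family kept their sign in each alternative run. The summed share differed by −35.2 to −27.6 points with each section left out, and by −15.5 points in enzyme-rich spots, which number 8 and 34 in the Ehmt2 fl/fl sections. For Cela2a the left-out range was −9.77 to −8.89 points and for Ctrb1 13.3 to 14.5 points.

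The test across genes depended on the processing. The count of called genes, 22, became 286 with DESeq2, 400 with library sizes alone, 3 with upper-quartile factors, 13 with slide as a block, 2363 with slide as a block and library sizes, and 12 in enzyme-rich spots. It ran from 0 to 16653 with 1 section left out: 379 without Ehmt2+/+ replicate 1, 16653 without replicate 2, and 2 and 0 without Ehmt2 fl/fl replicates 1 and 2 (for the last, 18 genes had an unadjusted p under 0.05). In such fits the lone section is assumed to vary like the other genotype. The count of called members, 0, became 6 with DESeq2 and 1 (Cela2a) in enzyme-rich spots, and ran from 0 to 6 with 1 section left out. Relative to the other pancreatic enzymes it was 0, became 4 in enzyme-rich spots (Ctrl, Cela2a, Cela3b and Cpa1), where 106 of 7292 genes were called, and ran from 0 to 1 (Cela3a, without Ehmt2+/+ replicate 2, where 19811 of 20117 genes were called). The cause was not tested.

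Signs turned for Cela3a with library sizes, at 0.36 and, with slide as a block, 0.37. Relative to lipases, Ctrl turned to 0.12, Cela1 to 0.37, Cela3b to 0.13 and Cpa1 to 0.23, and Ctrb1 turned to −0.12 relative to trypsinogens and −0.13 in enzyme-rich spots. The share of Cela1 within the family turned to 0.50 points in enzyme-rich spots, 0.083 in the bin of 300 to 1000, 0.21 within the first slide and 0.0072 without Ehmt2+/+ replicate 2, in a left-out range of −0.54 to 0.0072. The share of spots with Cela3a turned to −1.79 points unthinned and −0.349 points when thinned on non-enzyme UMIs.

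Sections were paired by slide, which held 1 section of each genotype, and the slide block added no call among the members. The counts of Cela3a lay within the background of 2 sections.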
